A study of Mus musculus with 8 samples.

Results

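The genes described here encode parts of the Slit and Robo system and of the class 3 semaphorin system, which guide growing axons and migrating cells. They are the secreted ligands Slit2 and Slit3, the receptors Robo1 and Robo2, the secreted semaphorins Sema3a, Sema3c and Sema3e, the semaphorin receptors Nrp1 and Nrp2, and the plexin Plxna2. These 10 genes were found by their symbols in the annotation of the array, among 18194 genes with a probe set of their own. Each had 1 to 4 probe sets, and a gene was represented by the probe set with the highest mean log2 value. Slit2 was chosen by its level, which was over 200-fold higher in MC3T3 than in OP9 cells. Its values in MC3T3 cells, and all differences between MC3T3 and OP9 cells, are therefore given as a description without a test. Of the 10 genes, 8 were among the 10084 genes that reached an intensity of 100 on at least 2 of the 8 arrays and were tested, while Slit3 and Robo2 stayed under 100 on every array.

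The study compared stroma lines that differ in their support of B-cell development, and asked whether pre-B cells change the gene expression of the stroma cells they grow on. Affymetrix mouse arrays, 2 for each of 4 groups, were made from MC3T3 cells, OP9 cells grown with 230-238 cells, OP9 cells alone and NIH3T3 cells. MC3T3 is an osteoblast-like line given as Balb/c, OP9 a bone marrow stroma line given as B6C3F1, NIH3T3 an embryonic fibroblast line given as Balb/c, and 230-238 a transformed pre-B line. By the study's descriptions the OP9 cells of both the co-culture and its control carried mStrawberry, a red fluorescent protein brought in by a retrovirus. Those of the co-culture were sorted away from the pre-B cells after a week together and treatment with trypsin and EDTA. The control OP9 cells were kept in conditioned medium of the co-culture, whereas the labels name only an OP9 culture. The paper does not say whether the control cells of the arrays were treated and sorted in the same way. If they were not, co-culture and handling cannot be told apart. The second MC3T3 array is described as coming from sorted cells and the first as coming from a culture. OP9 cells were grown in OptiMEM and the other lines in Dulbecco's medium. The mStrawberry retrovirus and the conditioned medium are described for OP9 cells and not for the other lines. Where OP9 cells are set against another line, the line thus cannot be told apart from its medium, the conditioned medium or the retrovirus. The labels call the arrays biological replicates. Nothing says that separate cultures were used for the lines, so the spread between the arrays of a group, on which all p-values rest, may be technical.

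The values are intensities that the authors had normalized, with array medians between 41.77 and 44.99. Between the arrays of a group the median absolute log2 difference of a gene was 0.09 in MC3T3, 0.07 in co-cultured OP9, 0.07 in OP9 and 0.14 in NIH3T3 cells. The number of arrays limits the precision, and an intensity of one probe set cannot be set against that of another. Of the osteoblast markers, 6 of 9 were matched, and in MC3T3 cells Alpl, Ibsp, Sp7 and Phex stayed under 100, whereas Dmp1 was at 1056 ± 122 and Col1a1 at 2220 ± 27 (SD, n = 2). Of the 6, Dmp1 alone was highest in MC3T3 cells. Col1a1 averaged 10277 in OP9, 9985 in co-cultured OP9 and 3224 in NIH3T3 cells. Phex averaged 29.2 in MC3T3, 124 in OP9, 45.2 in co-cultured OP9 and 134 in NIH3T3 cells. The 8 endothelial markers had means under 100 in all groups.

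Slit proteins bind Robo receptors, which act on the actin cytoskeleton and usually repel the cell or axon that carries them. Class 3 semaphorins bind neuropilins, which have no signalling domain of their own and pass the signal through plexins, and neuropilins also bind members of the vascular endothelial growth factor (VEGF) family. Slit proteins are known to dampen migration of leukocytes towards CXCL12, a chemokine made by bone marrow stroma, and semaphorin 3A is known as an osteoblast product that acts on bone turnover.

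The sequence before the transcription start is shown for the 3 genes on which the results below turn, the ligand that reached 100 on the MC3T3 arrays alone (Slit2), the receptor that was highest in co-culture (Robo1) and the semaphorin that was highest in MC3T3 cells and fell in co-culture (Sema3a). Each window runs 5′ to 3′ on the strand of the gene, from 250 bases before to 50 bases after the start, in the GRCm38.p6 build of RefSeq, and capitals mark CpG. The Slit2 window is at chr5:47982905-47983204, the Robo1 window at chr16:72662899-72663198 and the Sema3a window at chr5:13396534-13396833, all on the plus strand.
Slit2: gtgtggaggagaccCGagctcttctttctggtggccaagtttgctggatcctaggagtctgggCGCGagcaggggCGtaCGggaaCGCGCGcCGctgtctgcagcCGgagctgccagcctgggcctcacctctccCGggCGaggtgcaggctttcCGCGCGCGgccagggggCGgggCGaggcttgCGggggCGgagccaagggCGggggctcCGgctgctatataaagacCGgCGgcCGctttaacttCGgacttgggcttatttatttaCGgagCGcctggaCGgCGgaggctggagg
Robo1: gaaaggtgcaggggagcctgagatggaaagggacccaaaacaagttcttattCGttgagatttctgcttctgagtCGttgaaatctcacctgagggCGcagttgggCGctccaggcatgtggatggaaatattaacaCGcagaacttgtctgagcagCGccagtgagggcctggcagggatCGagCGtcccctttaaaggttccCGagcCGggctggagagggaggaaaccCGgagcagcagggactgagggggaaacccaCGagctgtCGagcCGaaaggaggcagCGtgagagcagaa
Sema3a: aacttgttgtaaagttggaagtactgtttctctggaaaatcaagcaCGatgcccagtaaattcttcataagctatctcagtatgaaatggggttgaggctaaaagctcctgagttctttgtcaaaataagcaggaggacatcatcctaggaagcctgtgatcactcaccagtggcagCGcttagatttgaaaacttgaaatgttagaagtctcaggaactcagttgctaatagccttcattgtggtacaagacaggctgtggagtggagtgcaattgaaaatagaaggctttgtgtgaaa
The Slit2 window held 30 CpG, the Robo1 window 15 and the Sema3a window 2, against a median of 7 over 32851 windows of the same length. The letters TATAAA stood 28 bases before the Slit2 start on the strand of the gene, and on neither strand in the windows found for the other 9 genes, while 8.32% of all windows held them on the strand of the gene and 13.6% on either strand. All 10 genes had a window, and those not printed held between 5 CpG, in a Robo2 window, and 42 CpG, in the Sema3c window.

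Both Slit genes hold a copy of the microRNA miR-218 within their span, and it is shown because Slit2, 1 of the host genes, is the gene by which the set was chosen. The mature strand lies in Slit2 at chr5:48223966-48223986 and in Slit3 at chr11:35616840-35616860, both on the plus strand of GRCm38.p6, and its seed, bases 2 to 8, is in capitals.
mmu-miR-218-5p: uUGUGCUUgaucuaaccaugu
The level of miR-218 was not measured here. Of the genes described, Sema3a, Sema3e, Sema3c and Slit2 lie on chromosome 5, with 3 protein-coding genes between Sema3a and Sema3e and 15 between Sema3e and Sema3c in the RefSeq gene table.

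When OP9 cells were grown with 230-238 pre-B cells, the Slit receptor Robo1 rose and the semaphorins Sema3a and Sema3c fell. The rise of Robo1 rested on 1 of its 3 probe sets. The fall of Sema3c rested on 1 of its 2 probe sets, under 100 on all arrays compared. Calls were made at a limma adjusted p below 0.05 together with a change of at least 2-fold. Thus 1 of the 8 tested genes was called higher and 2 were called lower in co-culture, where 2.71% of all genes tested were higher and 2.97% lower. The median log2 difference of the 8 genes was -0.53, beside -0.05 over all genes tested. In OP9 as compared to NIH3T3 cells 3 of the 8 genes were higher and 2 lower, where 20.5% of all genes were higher and 10.3% lower, with a median of 0.04 for the 8 genes beside 0.16 over all genes. In MC3T3 as compared to NIH3T3 cells, with Slit2 left out of the count, 3 of 7 genes were higher and 4 lower, where 17.8% of all genes were higher and 9.65% lower, with a median of -1.55 beside 0.12. These counts and medians are a description, since a gene could enter the test through the group in which it was high. Slit2, counted among the 8 genes, entered in this way through the MC3T3 arrays and was near the bottom of the scale in co-cultured OP9, OP9 and NIH3T3 cells. It is also part of the medians of the 8 genes. The median of 0.04 lies between the values of Slit2 (-0.07) and Nrp1 (0.15), so nothing is read from it. For other genes that entered through a high group, p-values against a group under 100 carry the same limit. The comparisons share the OP9 or the NIH3T3 arrays, and as whole cell populations were measured, fewer cells of a type and less RNA per cell cannot be told apart.

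**Figure D1:**
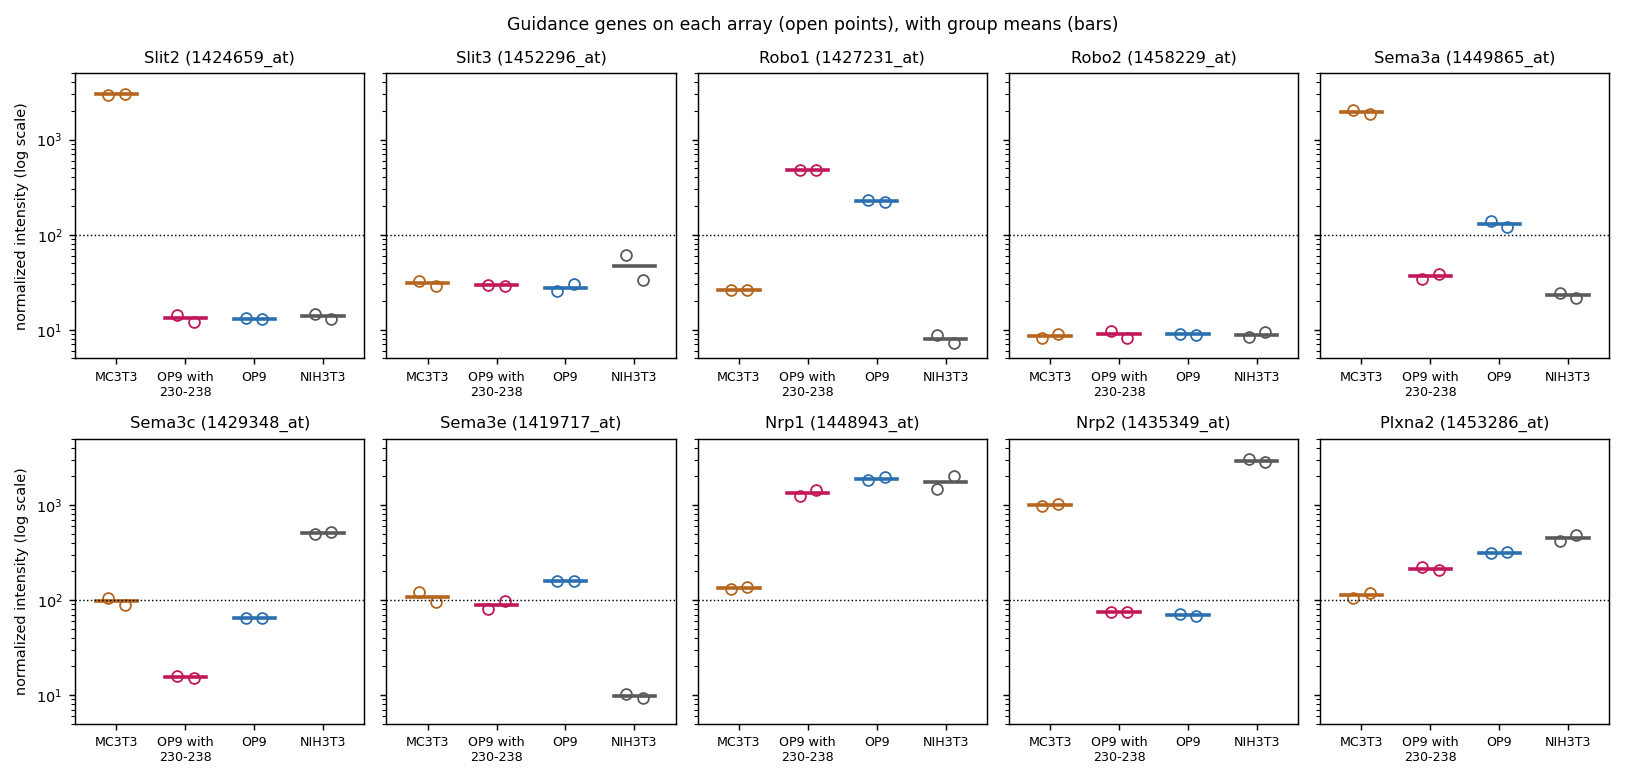
Normalized intensity (log scale) of the 10 genes on each array, with open points for arrays, bars for the mean of the 2 arrays of a group and a dotted line at 100. Slit2 stands at 2987 and 2995 in MC3T3 cells and under 15 in the other groups, Robo1 is highest in OP9 with 230-238, and Slit3 and Robo2 stay under the line throughout.

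Slit2, the ligand by which the set was chosen, was at 2987 and 2995 on the MC3T3 arrays. It was at 14.3 and 12.1 in co-cultured OP9, 13.3 and 12.9 in OP9, and 14.7 and 13.0 in NIH3T3 cells. Only the MC3T3 arrays stood above the level of the others, which overlapped each other near the bottom of the scale. As a description, Slit2 was 228-fold above OP9 cells (log2 difference 7.83) and 217-fold above NIH3T3 cells (7.76), and of the other genes described Sema3a had the largest difference between MC3T3 and OP9 cells in this direction, at 15.1-fold. The size of a fold against values this low rests on the background, and with 16 added to each value the log2 difference from OP9 cells was 6.69. Its other probe sets, 1458140_at with 65.9 and 112 and 1451430_at with 55.5 and 82.9 in MC3T3 cells, were also higher in that line, with log2 differences from OP9 cells of 3.23 and 2.63, and were between 8.3 and 12.3 on the arrays of the other groups. Slit2 entered the test through its MC3T3 arrays alone, so no test is read from it between the co-culture, OP9 and NIH3T3 groups, in which it was near the bottom of the scale.

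Other genes of the nervous system were looked at beside this level, since Slit2 is a guidance molecule of axons. Of 8 neuron and glia markers 7 were matched, and their summed intensity was 709 to 729.7 in MC3T3, 249 to 290.2 in co-cultured OP9, 262 to 299 in OP9 and 351 to 353 in NIH3T3 cells. Map2 and Tubb3, which encode cytoskeletal proteins, were at 214 ± 16 and 303 ± 12 (SD, n = 2) in MC3T3 cells, and Snap25 and Nefl were at 8.85 ± 0.11 and 13.8 ± 1.5 there. Most of the MC3T3 sum thus came from Map2 and Tubb3. Gfap, Mbp and Sox10 were at 43.4, 36.7 and 99.7 in MC3T3 cells, beside 42.2, 90.3 and 113.8 in NIH3T3 cells. No marker of the list was at 0. The part of such cells in the Slit2 level was not tested.

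The genes whose pattern over the 8 arrays was most like that of Slit2, by the root mean square difference of log2 values after the mean of each gene was subtracted, were Cyp1a1 (0.35), Eya1 (0.55) and Sostdc1 (0.87). Cyp1a1, which encodes a cytochrome P450 of xenobiotic metabolism, averaged 2254 in MC3T3, 16.4 in co-cultured OP9, 15.2 in OP9 and 18.5 in NIH3T3 cells. Eya1 encodes a transcriptional cofactor of organ development and averaged 1380.3 in MC3T3, 13.7 in co-cultured OP9, 12.4 in OP9 and 16.6 in NIH3T3 cells. Sostdc1 encodes a secreted antagonist of BMP and Wnt signals and averaged 1352, 21.7, 21.0 and 27.0 in the same order.

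Slit3, the second Slit ligand, was at 32.7 and 28.8 in MC3T3, 29.7 and 29.1 in co-cultured OP9, 25.3 and 30.0 in OP9, and 61.2 and 33.2 in NIH3T3 cells, and was not tested. One NIH3T3 array stood above all others, and the MC3T3, co-culture and OP9 arrays overlapped. Thus Slit2 reached 100 in MC3T3 cells and Slit3 in no group.

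Robo1, a receptor for Slit proteins, was at 26.2 and 26.3 in MC3T3, 476 and 481 in co-cultured OP9, 232 and 220.3 in OP9, and 8.87 and 7.18 in NIH3T3 cells. The 4 groups did not overlap, and the order from high to low was co-culture, OP9, MC3T3 and NIH3T3. Robo1 was 2.11-fold higher in co-cultured OP9 than in OP9 cells (log2 difference 1.08 ± 0.10 SE, adjusted p = 0.00017 from limma). In OP9 cells Robo1 was 28.3-fold above its NIH3T3 level (4.82 ± 0.10 SE, adjusted p = 1.07e-08 from limma). Robo1 reached 100 in co-cultured OP9 and OP9 cells alone, so this p-value carries the limit of a gene that entered through its high groups. In MC3T3 cells it was 3.29-fold above NIH3T3 (adjusted p = 2.68e-06 from limma) although all 4 arrays were under 100, and with 16 added to each value this difference was under 2-fold, at a log2 difference of 0.81. As a description, Robo1 was 8.62-fold lower in MC3T3 than in OP9 cells, and the line with the highest Slit2 thus had Robo1 under 100. These values come from the probe set 1427231_at. The other probe sets of Robo1, 1457407_at and 1445549_at, lay between 9.5 and 21.0 on all arrays, and with the mean of all probe sets the co-culture difference was 0.38 and was not called.

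The genes most like Robo1 in their pattern were Runx1t1 (0.36), Slc7a2 (0.44) and Adam23 (0.44). Runx1t1, which encodes a transcriptional corepressor, averaged 32.2 in MC3T3, 439 in co-cultured OP9, 151 in OP9 and 9.27 in NIH3T3 cells. Robo2, the second Robo receptor described, lay between 8.14 and 9.65 on all 8 arrays, with no separation of the groups, and was not tested.

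Sema3a, which signals through Nrp1 and plexins of class A, was at 2034 and 1848 in MC3T3, 34.3 and 38.5 in co-cultured OP9, 138 and 119 in OP9, and 24.6 and 21.5 in NIH3T3 cells. The groups did not overlap, and MC3T3 stood far above the rest. Sema3a fell 3.53-fold in co-culture as compared to OP9 cells (log2 difference -1.82 ± 0.11 SE, adjusted p = 2.19e-05 from limma). Above its NIH3T3 level it was 84.3-fold higher in MC3T3 (6.40 ± 0.11 SE, limma adjusted p = 6.3e-09) and 5.59-fold higher in OP9 cells (2.48 ± 0.11 SE, limma adjusted p = 4.88e-07). Sema3a entered the test through the MC3T3 and OP9 arrays, where it was high, and its p-values carry that limit. The probe set 1420416_at gave log2 differences of -1.24, 2.59 and 6.20 for these comparisons and was called in each. The weak probe set 1420417_at was not tested, and was at 38.7 and 55.6 in MC3T3 cells and between 9.3 and 13.2 on the other arrays.

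The pattern of Sema3a was most like those of Dmp1 (0.16), Mmp16 (0.58) and Postn (0.62). Dmp1, which encodes a matrix protein of bone and dentin, averaged 1056 in MC3T3, 18.4 in co-cultured OP9, 60.1 in OP9 and 10.99 in NIH3T3 cells. Postn encodes periostin, a matrix protein of bone and other connective tissue, and averaged 2109 in MC3T3, 61.2 in co-cultured OP9, 427 in OP9 and 36.0 in NIH3T3 cells.

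Sema3c, which binds both neuropilins, was at 104 and 89.6 in MC3T3, 16.04 and 15.2 in co-cultured OP9, 64.9 and 64.5 in OP9, and 489 and 516 in NIH3T3 cells. It was highest in NIH3T3 cells, the line in which Sema3a and Sema3e were lowest. Sema3c fell 4.14-fold in co-culture as compared to OP9 cells (log2 difference -2.05 ± 0.09 SE, adjusted p = 4.67e-06 from limma), with all 4 arrays under 100. Against NIH3T3, it was 5.20-fold lower in MC3T3 (limma adjusted p = 2.3e-07) and 7.77-fold lower in OP9 cells (limma adjusted p = 5.75e-08). Sema3c entered the test through the NIH3T3 arrays, where it was high, and these p-values carry that limit. The second probe set, 1420696_at, was lower in OP9 and in MC3T3 than in NIH3T3 cells as well, with log2 differences of -2.92 and -2.72. In co-culture it was at 16.5 and 15.0, against 17.5 and 18.9 in OP9 cells, and was not called (log2 difference -0.21, adjusted p = 0.325 from limma over all probe sets).

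Sema3e, which signals through plexin D1 without the need of a neuropilin, was at 121 and 95.9 in MC3T3, 81.4 and 97.2 in co-cultured OP9, 159 and 158 in OP9, and 10.1 and 9.26 in NIH3T3 cells. The OP9 arrays were the highest, the MC3T3 and co-culture arrays overlapped, and NIH3T3 cells had next to no signal. Against NIH3T3, it was 11.1-fold higher in MC3T3 (limma adjusted p = 2.37e-07) and 16.3-fold higher in OP9 cells (limma adjusted p = 8.85e-08). Sema3e entered the test through the OP9 arrays and the first MC3T3 array, where it was high. Its p-values against NIH3T3 cells, and that of the co-culture below, carry that limit. In co-culture the 4 arrays did not overlap and the log2 difference was -0.83 ± 0.13 SE (adjusted p = 0.00179 from limma), which was 1.78-fold and under the 2-fold that a call required. Its other probe sets had differences of -0.45 to -0.79 in co-culture.

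**Figure D2:**
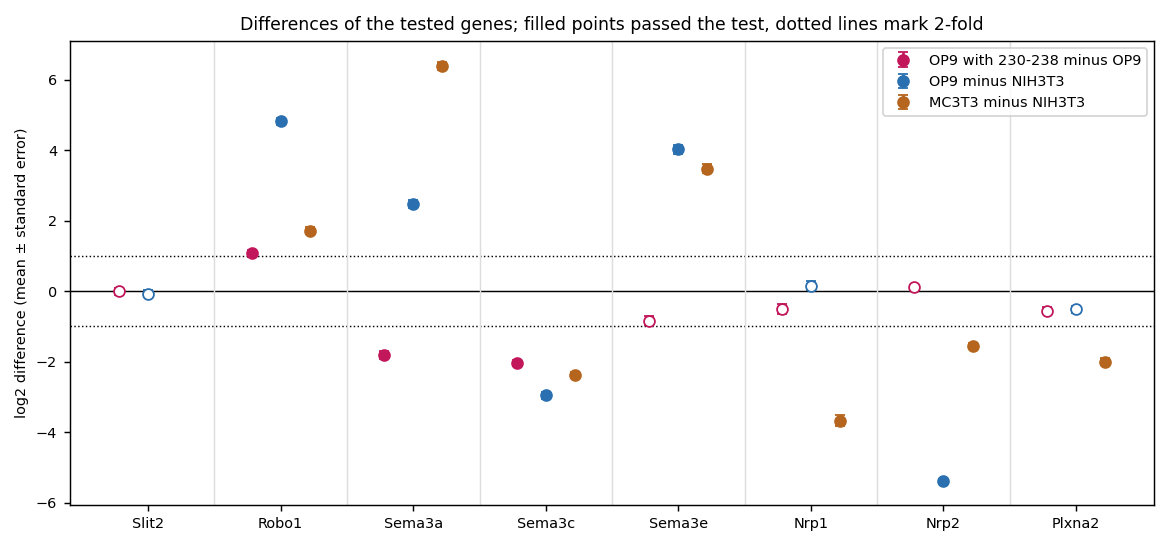
Log2 differences of the 8 tested genes (points) with standard errors (bars) in OP9 with 230-238 minus OP9, OP9 minus NIH3T3 and MC3T3 minus NIH3T3, where filled points passed the test and dotted lines mark 2-fold. Robo1 is the filled point above 0 in co-culture and Sema3a and Sema3c are those below, and Slit2 has no point for MC3T3 minus NIH3T3 because that difference was not tested, and its other points compare values near the bottom of the scale.

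Nrp1, a coreceptor of semaphorin 3A and of VEGF, was at 131 and 138 in MC3T3, 1248 and 1440.4 in co-cultured OP9, 1820.2 and 1972 in OP9, and 1463 and 2004 in NIH3T3 cells. Both groups of OP9 cells and the fibroblasts were thus high and MC3T3 cells were low. In MC3T3 cells Nrp1 was 12.7-fold under its NIH3T3 level (log2 difference -3.67 ± 0.15 SE, limma adjusted p = 3.52e-07) and, as a description, 14.1-fold lower in MC3T3 than in OP9 cells. In co-culture the log2 difference was -0.50 (adjusted p = 0.0292 from limma), which did not reach 2-fold. Between OP9 and NIH3T3 cells the arrays overlapped, and the difference of 0.15 had a 95% interval of -0.20 to 0.49 (adjusted p = 0.387 from limma). The probe sets 1418084_at and 1448944_at gave 0.89 and 0.71 there, also under 2-fold, while 1457198_at, under 100 on every array, gave -0.29.

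Nrp2, which binds Sema3c and Sema3f, was at 973 and 1023 in MC3T3, 75.1 and 75.6 in co-cultured OP9, 71.7 and 67.5 in OP9, and 3022 and 2813 in NIH3T3 cells. The neuropilins thus had different orders over the lines, with Nrp1 low in MC3T3 cells and Nrp2 low in OP9 cells. In OP9 cells Nrp2 was 41.9-fold under its NIH3T3 level (log2 difference -5.39 ± 0.07 SE, limma adjusted p = 2.09e-09). In MC3T3 cells it was 2.92-fold under that level (-1.55 ± 0.07 SE, limma adjusted p = 7.48e-07) and, as a description, 14.3-fold higher in MC3T3 than in OP9 cells. In co-culture it did not pass the test, with a log2 difference of 0.12 and a 95% interval of -0.05 to 0.28 (adjusted p = 0.238 from limma). The other probe sets of Nrp2 were also lower in OP9 than in NIH3T3 cells, with log2 differences between -2.63 and -5.00. Nrp2 was under 100 in OP9 cells, so the p-value of that comparison carries the limit of a gene that entered through its high groups.

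Plxna2, a plexin that transmits the signal of semaphorins bound to neuropilins, was at 106 and 119.9 in MC3T3, 221 and 208 in co-cultured OP9, 309.5 and 321 in OP9, and 418 and 488 in NIH3T3 cells. The groups did not overlap and stood in this order from low to high. In MC3T3 cells Plxna2 was 4.01-fold under its NIH3T3 level (limma adjusted p = 9.87e-07). The differences in co-culture (-0.56, adjusted p = 0.00347 from limma) and between OP9 and NIH3T3 cells (-0.52, adjusted p = 0.00174 from limma) were under 2-fold. One of its other probe sets, 1451753_at, was called lower in OP9 than in NIH3T3 cells, at a log2 difference of -1.02.

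**Figure D3:**
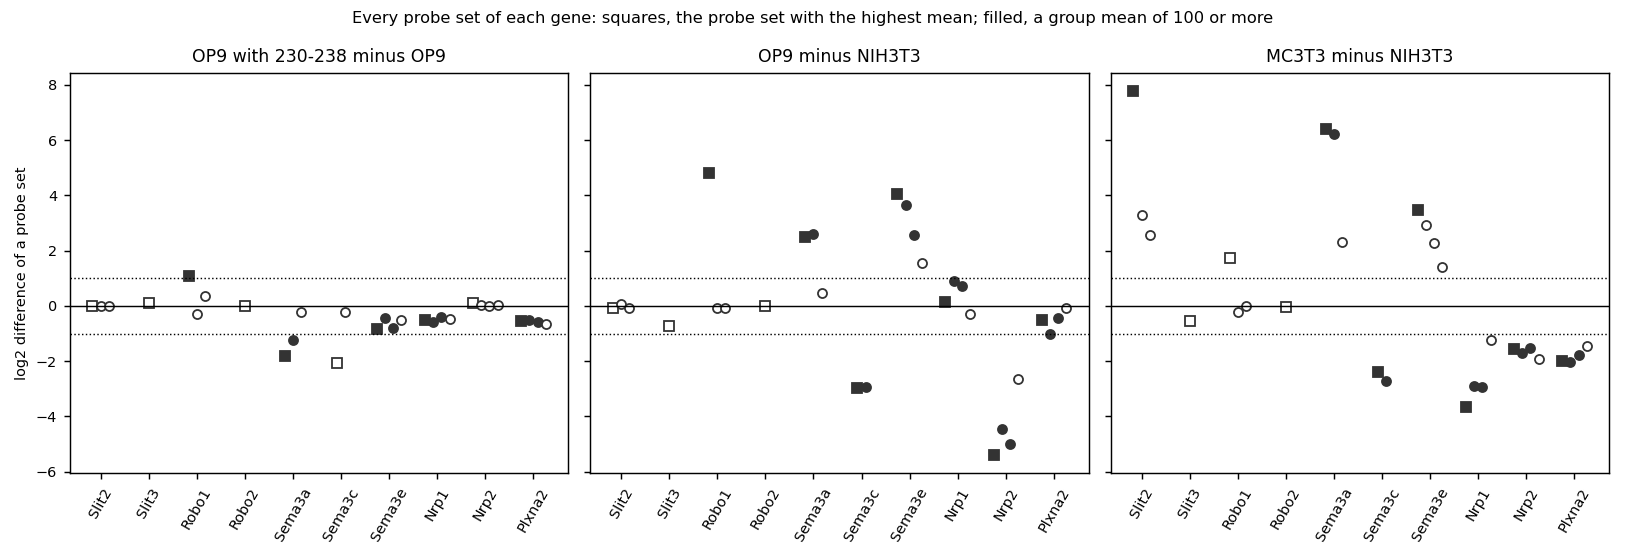
Log2 difference of every probe set of each gene in OP9 with 230-238 minus OP9, OP9 minus NIH3T3 and MC3T3 minus NIH3T3. Squares stand for the probe set with the highest mean, filled symbols for a mean of 100 or more in at least 1 of the groups compared, and dotted lines for 2-fold. The probe sets of Sema3e, Nrp2 and Plxna2 lie on 1 side of 0 within each comparison of lines, whereas 1 of the 3 Robo1 probe sets carries the differences of that gene.

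Viewed across the lines as a description, 3 of the 8 tested genes (Slit2, Sema3a and Nrp2) were at least 2-fold higher and 3 (Robo1, Nrp1 and Plxna2) at least 2-fold lower in MC3T3 than in OP9 cells. Of all genes tested, 9.41% were at least 2-fold higher and 10.5% at least 2-fold lower in MC3T3 cells, and since the set was chosen with this comparison in view, nothing is read from the count. Sema3c was 1.49-fold higher in MC3T3 than in OP9 cells and Sema3e 1.47-fold lower. The genes with a mean of 100 or more thus differed between the groups. In MC3T3 cells they were Slit2, Sema3a, Sema3e, Nrp1, Nrp2 and Plxna2, and in co-cultured OP9 cells Robo1, Nrp1 and Plxna2. In OP9 cells they were Robo1, Sema3a, Sema3e, Nrp1 and Plxna2, and in NIH3T3 cells Sema3c, Nrp1, Nrp2 and Plxna2.

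Markers of pre-B cells were followed beside the co-culture values. Of 11 markers 10 were matched, none was at 0, and their summed intensity was 1672 to 1913 in co-culture and 2169 to 2383 in OP9 cells. Most of it came from Ebf1, which was at 1399 ± 186 in co-culture and 2034 ± 158 (SD, n = 2) in OP9 cells. Without Ebf1 the sum was higher in co-culture, at 382 to 405, against 236 to 247 in OP9 cells. Vpreb1, part of the surrogate light chain, was at 76.9 ± 1.2 in co-culture and 23.7 ± 3.0 in OP9 cells. Ptprc, encoding the leukocyte antigen CD45, was at 32.8 ± 2.5 in co-culture and 8.75 ± 0.24 in OP9 cells. Of the list, Igll1, Ebf1 and Blnk had enough signal to be tested, with log2 differences of 0.32, -0.54 and 0.57 (adjusted p = 0.166, 0.0321 and 0.114 from limma), under 2-fold each. The part of remaining pre-B cells in the Robo1, Sema3a and Sema3c differences was not tested.

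Further genes of these pathways were described from 5 lists with 79 genes, of which 50 were tested. In co-culture 4 of the 50 rose and none was called lower in limma, beside 2.71% and 2.97% of all genes, and at an unadjusted p below 0.05 there were 18 higher and 13 lower. The median log2 difference of the 50 genes was 0.04, beside -0.05 over all genes. None of 14 genes of the Slit and Robo pathway was called in limma, though at an unadjusted p below 0.05 there were 2 higher and 6 lower. None of 6 genes of netrins and their receptors was called either, though 2 were higher and 1 was lower at that unadjusted level. Of 8 other semaphorins Sema3b rose, to 220.3 ± 24.2 in co-culture against 92.0 ± 2.9 (SD, n = 2) in OP9 cells (log2 difference 1.26, adjusted p = 0.000255 from limma). Of 5 tested VEGF ligands, which can share neuropilins with semaphorins, 2 rose, while the receptors Kdr, Flt1 and Flt4 had too little signal to be tested. Vegfc, a growth factor of lymphatic vessels, was at 214 ± 15 in co-culture and 69.3 ± 4.7 in OP9 cells (1.63, adjusted p = 2.65e-05 from limma). It was measured by an _x_at probe set, a type that can bind related transcripts. Vegfc entered the test through the co-culture arrays, where it was high, and its p-value carries that limit. Vegfa, a growth factor of blood vessels, was at 504 ± 7 in co-culture and 251.3 ± 2.7 in OP9 cells (1.01, adjusted p = 0.000143 from limma), and was just under 2-fold without the first co-culture array (0.99) or the first OP9 array (0.99). Of 17 other plexins and semaphorin signalling genes Mical1, which encodes an enzyme that oxidizes actin, rose to 955 ± 44 against 357 ± 27 in OP9 cells (1.42, adjusted p = 0.0185 from limma), and it was measured by an _x_at probe set, which can bind related transcripts, and lost its call when any of the 4 arrays compared was left out (adjusted p between 0.0697 and 0.0948).

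In OP9 as compared to NIH3T3 cells 18 of the 50 genes were higher and 8 lower, beside 20.5% and 10.3% of all genes, with a median log2 difference of 0.35 beside 0.16. Of the Slit and Robo pathway 6 of 14 genes were higher, led by Srgap3 (1.80), whose product binds Robo receptors, and by Evl (1.57) and Enah (1.42), whose products extend actin filaments, and the kinase gene Abl2 (-1.18) was lower. Of the other semaphorins, the membrane-bound Sema6d (3.45) and Sema5a (2.16) were higher and Sema4d (-2.12) and Sema3f (-1.24) lower. Sema3f, also measured by an _x_at probe set, was at -0.59 without the first NIH3T3 array, and at -1.16 and not called without the second OP9 array. Of the other plexins and signalling genes Farp2 (2.71), Mical1 (2.32), Plxnd1 (2.23), Dpysl2 (1.61) and Dpysl3 (1.47) were higher and Fyn (-2.21), Mical2 (-1.40) and Plxna1 (-1.21) lower. Plxnd1 encodes the receptor of semaphorin 3E, with 1297 ± 9 in OP9 cells against 277 ± 32 (SD, n = 2) in NIH3T3. Vegfc (2.06) and Vegfb (1.54) were higher and Vegfa (-2.68) lower. Vegfc averaged 69.3 in OP9 and 16.5 in NIH3T3 cells and entered the test through the co-culture arrays, so its call compares values under 100. Of the netrin group, Ntn1, which encodes the secreted guidance protein netrin 1, reached 1012 ± 93 in OP9 cells, against 27.0 ± 11.4 in NIH3T3 (5.29, adjusted p = 5.96e-07 from limma). The receptor genes Neo1 (2.08) and Unc5c (1.74) were higher as well and Rgmb (-1.02) was lower, though at -0.93 without the second NIH3T3 array and at -0.96 without the second OP9 array. The values in brackets are log2 differences. Calls against a group under 100, here and for MC3T3 cells below, carry the limit of genes that entered through a high group.

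In MC3T3 as compared to NIH3T3 cells 8 of the 50 genes were higher and 9 lower, beside 17.8% and 9.65% of all genes, with a median log2 difference of -0.19 beside 0.12. Srgap3 (1.49) was higher and Enah (-2.35) lower among the Slit and Robo pathway genes. Of the other semaphorins, none of 8 was called higher in limma (1 at an unadjusted p below 0.05) and Sema5a (-3.09), Sema4d (-1.74) and Sema3f (-1.36) were lower, and Sema3f was at -0.71 without the first NIH3T3 array. Farp2 (3.08), Dpysl2 (1.88) and Mical1 (1.67) were higher and Mical2 (-1.29) and Mical3 (-1.19) lower among the other plexins and signalling genes. Vegfc (1.60), Vegfb (1.43) and Vegfd (1.21) were higher and Vegfa (-2.27) lower, with Vegfa at 337 ± 43 in MC3T3 and 1616 ± 13 (SD, n = 2) in NIH3T3 cells. Vegfc averaged 50.2 in MC3T3 and 16.5 in NIH3T3 cells, so its call again compares values under 100. Ntn1 (3.16) was higher and the repulsive guidance molecule genes Rgma (-1.87) and Rgmb (-1.08) lower. Mical1 was at 0.98 without the second NIH3T3 array, and Rgmb at -0.996 and under 2-fold without that array or without the second MC3T3 array. Abl2, Sema3f, Dpysl2, Dpysl3, Fyn, Mical2, Plxna1 and Rgmb in OP9 cells, and Mical2, Mical3 and Vegfd in MC3T3 cells, were named after their values were seen, to complete counts of 5 or fewer.

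**Figure D4:**
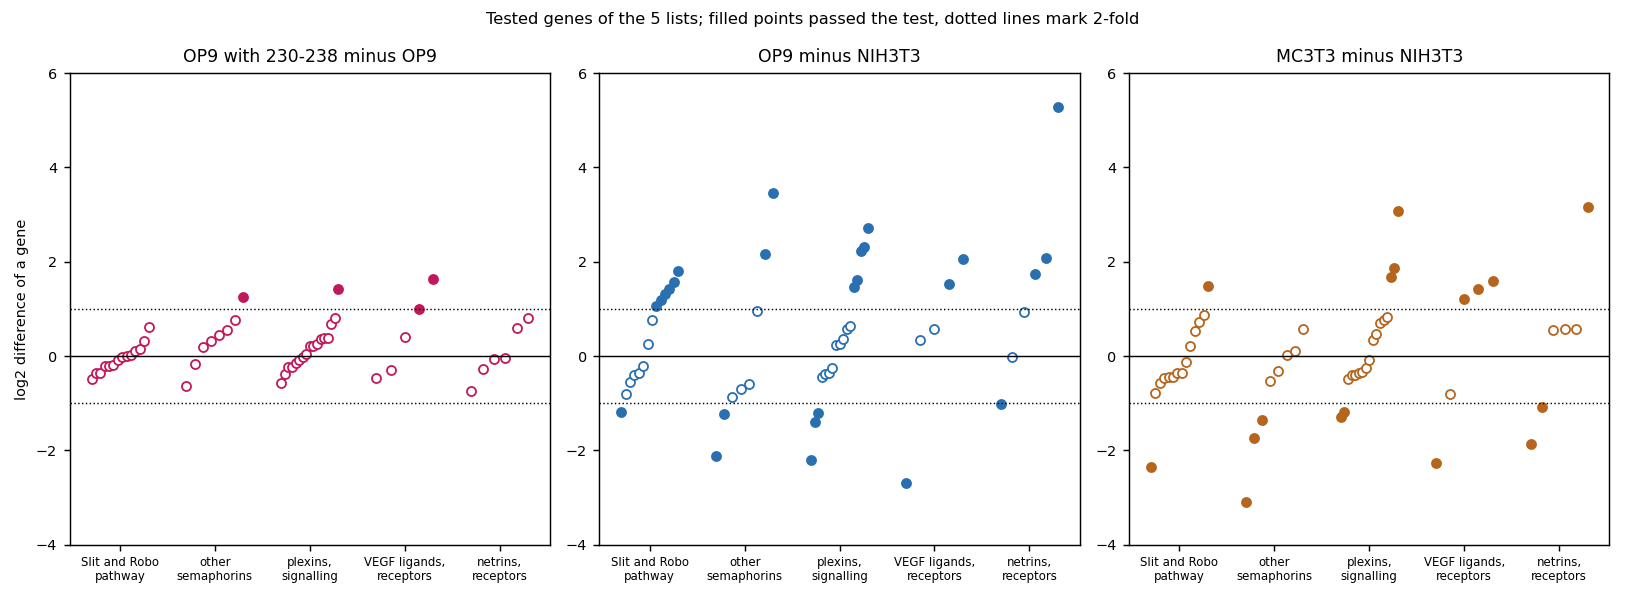
Log2 differences of the 50 tested genes of the 5 lists in OP9 with 230-238 minus OP9, OP9 minus NIH3T3 and MC3T3 minus NIH3T3, 1 point for each gene, in order of size within a list. Filled points passed the test and dotted lines mark 2-fold. In co-culture 4 points are filled, all above 0, and Ntn1 is the highest point of the netrin list in both comparisons with NIH3T3 cells.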

How the data were processed

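RNA of 4 groups of mouse cells was measured on Affymetrix mouse expression arrays, 2 per group, each with 45101 probe sets. The values deposited by the authors are linear intensity already normalized between arrays, made with RMA Express, affylmGUI or dChip, all of which the methods mention without tying one to this table. Probe sets were named through the platform annotation, in which 34958 had 1 symbol, 932 several and 9211 none, and only those with 1 symbol were used.

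Values were taken to log2 without a pseudocount. Genes that reached 100 on at least 2 arrays were kept, 10084 in all. Group means of the 4 groups were fitted with lmFit and eBayes of limma 3.58.1 in R 4.3.3, with 4 residual degrees of freedom, with Benjamini-Hochberg adjustment over all genes tested. A call required 2-fold and an adjusted p below 0.05. Values are means ± SD over arrays unless SE is given. The script was tested on simulated data. Array intensities give no read depth, so the number of arrays sets the precision.

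The genes, lists and comparisons were chosen with earlier results of these data known. The text names all 10 genes, up to 3 called genes with the largest fold per list and comparison, and the 3 genes most like Slit2, Robo1 and Sema3a. Promoter windows and microRNAs are from RefSeq tables of GRCm38.p6. The array values were used without coordinates. Alternatives were no filter, a filter at 200, a pseudocount of 16, median scaling, quantile normalization, the compared arrays alone, a replicate block, a trend and robust prior, the mean of all probe sets, no _x_at or _s_at probe sets, each probe set alone, no minimum fold, and leaving out each array. No array was left out of the main fit.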

Additional observations from a re-analysis of the deposited data

How the results depend on the processing

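Among the 10 genes, 0 were called higher in co-culture with the mean of all probe sets (1 in the main setting), where Robo1 was averaged with its weak probe sets, and 5 were called lower in co-culture with no minimum fold (2 in the main setting). The other counts of called genes changed by at most 1. Against NIH3T3 cells, 2 in place of 3 were higher in OP9 and in MC3T3 cells with a filter at 200, and 2 in MC3T3 cells with a pseudocount of 16 or the mean of all probe sets. With no minimum fold 3 in place of 2 were lower in OP9 cells. Leaving out any array left 1 higher and 2 lower in co-culture, 3 and 2 in OP9 against NIH3T3 cells, and 3 and 4 in MC3T3 against NIH3T3 cells. Of the other 50 pathway genes, 2 were called higher in co-culture with the mean of all probe sets (4 in the main setting), and leaving out an array gave 2 to 4 higher, 2 without the first co-culture array or the first OP9 array, and 0 to 0 lower. With no minimum fold 14 were higher and 8 lower in co-culture, 28 higher and 19 lower in OP9 against NIH3T3 cells (18 and 8 in the main setting), and 21 higher and 24 lower in MC3T3 against NIH3T3 cells (8 and 9). With the mean of all probe sets 5 were higher in MC3T3 against NIH3T3 cells. Leaving out an array gave 18 to 20 higher and 6 to 8 lower in OP9, and 7 to 8 higher and 8 to 9 lower in MC3T3 against NIH3T3 cells.

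Among alternatives with a test, the sign turned for differences close to 0 that passed no test. Of the probe sets too weak to be tested, the Robo1 probe set 1457407_at had log2 differences of -0.30 in co-culture, -0.08 in OP9 against NIH3T3 and -0.21 in MC3T3 against NIH3T3 cells, and 1445549_at was at -0.07 in OP9 against NIH3T3 cells, opposite in sign to the called 1.08, 4.82 and 1.72. Slit2 in co-culture was at -0.0326 with quantile normalization, -0.0232 with median scaling and -0.0118 with the mean of all probe sets, and between -0.115 and 0.119 with an array left out. Slit2 in OP9 against NIH3T3 cells was at 0.0113 with quantile normalization and between -0.166 and 0.0187 with an array left out. In these groups Slit2 was near the bottom of the scale. Nrp2 in co-culture was at -0.00558 in the probe set 1456778_at. Nrp1 in OP9 against NIH3T3 cells was between -0.081 and 0.373 with an array left out, negative without the first NIH3T3 array. Of 464 alternative values of 23 single-gene results, 446 kept call and direction. The 464 values include those of Slit2 near the bottom of the scale and fits without an array outside the comparison. Probe sets too weak to be tested were not counted. The median log2 difference of all genes was 0.16 in OP9 and 0.12 in MC3T3 against NIH3T3 cells, and 0.02 and 0.01 after quantile normalization, which changed no call among the 10 genes.

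Replicate numbers are shared by the groups, but the labels do not tie them to a culture or day, and correlations of the deviations of same-numbered arrays ran between -0.004 and 0.18, so the arrays were not treated as paired. With the replicate number as a block, 1 gene was higher and 2 lower in co-culture, 3 and 2 in OP9 and 3 and 4 in MC3T3 against NIH3T3 cells, and the other pathway genes gave 4 and 0, 18 and 8, and 8 and 9. Values near the bottom of the scale limit how far the folds of Slit2, Robo1, Sema3a, Sema3c and Sema3e can be read.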
